A study of Sus scrofa with 6 samples.

Results

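TTR, AQP1, FOLR1, ENPP2, F5, KCNE2 and PRLR, 7 gene symbols known from the choroid plexus, were followed one array at a time through pig cerebral cortex. They were read by all probe sets (groups of short probes that read 1 transcript) whose only symbol in the platform annotation is one of the 7, which gave 10 of the 23999 probe sets on the array, and 7 of the 6765 symbols read by a probe set with 1 symbol. The 7 genes were chosen by their place in the choroid plexus, with their signals on these same arrays already seen, so that their levels are a description and carry no test. RNA came from the cortical tissue of 6 pig embryos (Sus scrofa). Of these, 3 were taken at embryonic day 60 (E60; arrays 1, 2 and 3), before the cortex folds, and 3 at embryonic day 80 (E80; arrays 4, 5 and 6), after the first folds appear. Each embryo was read on its own Affymetrix Pig Genome Array, a 1-colour array, and no treatment or genetic change is named for either day. The embryos of a day are described as litter mates, with no litter named per array, so litter and day cannot be told apart. Signals are MAS5 values on a linear scale and differences are on the log2 scale.

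The choroid plexus is the folded tissue inside the brain ventricles that makes the cerebrospinal fluid. A single layer of epithelial cells, joined by tight junctions, covers a core of vessels and connective tissue and moves water, ions, vitamins and hormone carriers from the blood side to the fluid. It grows from the medial edge of the embryonic cortex and is not part of the cortical wall. Transthyretin (TTR) is its best known secreted product and is not made in quantity by cortical neurons or glia. In RNA from a piece of tissue, fewer cells of a type and less RNA per cell cannot be told apart.

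The 10 probe sets stand for 8 pig genes, since FOLR1 is the symbol of 2 of them. The gene identifiers of the FOLR1 probe sets are 396784 and 397579, which the RefSeq gene table of Sscrofa11.1 lists as separate genes of the same name. AQP1 and KCNE2 have a pair of probe sets for 1 gene each, and TTR, ENPP2, F5 and PRLR have 1 probe set each. No detection calls were used here, so the median signal of each array, 55.6 to 64.8, was taken as a mark below which a signal is called dim. On array 6 a signal above that mark was found for 6 of the 10 probe sets. Arrays 4 and 5 had 2 each, and only ENPP2 was above the mark on any E60 array.

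Array 6 stood apart from the other arrays in how many of all probe sets were far higher on it alone, those of the 7 genes included. Among probe sets with a signal above the median of an array, 69 on array 6 (0.575%) were at least 2-fold above the highest of the 5 other arrays. The same count was 4 on array 4 (0.0333%), 5 on array 5 (0.0417%) and 2 to 11 on the E60 arrays. At a 4-fold margin there were 14 on array 6 and 1 on array 4, with 0 on each of the others. Probe sets of the 7 genes made up 5 of the 69 and 4 of the 14. With dim signals raised to the median of their array, the 2-fold count was 33 on array 6 and at most 5 on any other. In the other direction array 6 did not stand apart. Among probe sets bright by their median over the 5 other arrays, 15 on array 6 were at least 2-fold below the lowest of these. That count was 11 on array 4, 18 on array 5 and 3 to 9 on the E60 arrays. The pair of control probe sets for 28S ribosomal RNA read 165 and 249 on array 6, against 525 to 999.9 and 384 to 587 on the other arrays. Of the 3 control probe sets for the middle of GAPDH, array 6 was highest on 2, at 2362 against 1673 to 2239 and 2860 against 2079 to 2859, and inside the range of the others on 1. Of 12 listed neuronal genes 1 was measured, STMN2, a growth cone protein of neurons, whose signal was 3351 to 4262 over the 6 arrays. It marks neurons and does not check the region that was taken. Of 8 listed striatal genes 2 were measured, with a summed signal of 258 to 747 at E60. Their sum was 174, 91.9 and 405 on arrays 4, 5 and 6, and the cause of this difference was not tested.

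**Figure D1:**
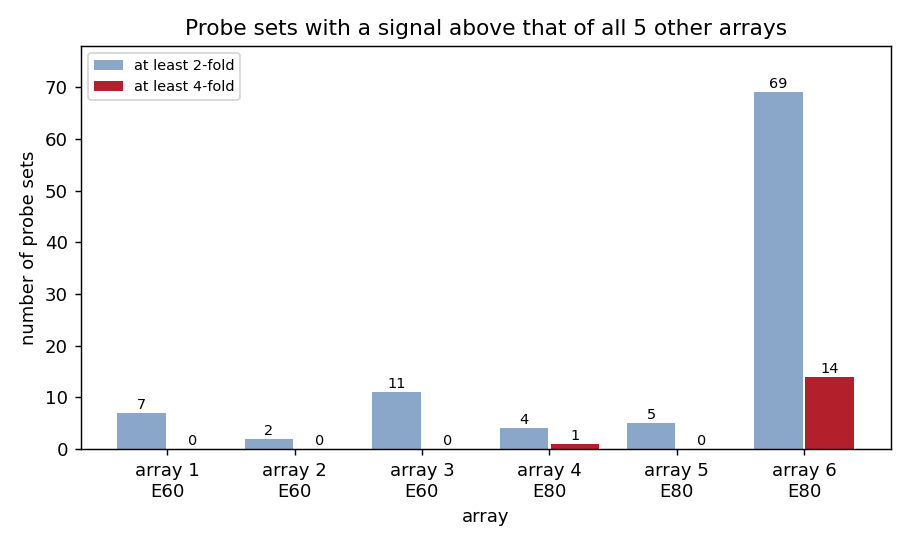
Number of probe sets (vertical axis) whose signal on an array was at least 2-fold (blue) or 4-fold (red) above the highest of the 5 other arrays, among those with a signal above the median of that array. Array 6 has 69 and 14, and the other arrays have 2 to 11 and 0 or 1.

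TTR, the carrier of thyroxine and of the retinol binding protein in cerebrospinal fluid, was bright on array 6 alone. Its signal was 3.70, 1.51 and 1.47 on arrays 1, 2 and 3, then 15.1 on array 4, 6.25 on array 5 and 4475 on array 6. Both E80 arrays with a dim signal still lay above all E60 arrays, so that the days did not overlap, and array 6 lay 297-fold above the next array. With each dim signal raised to the median of its array, TTR was at least 69.1-fold higher on array 6 than on any other array. That margin was the largest of all probe sets above the median on array 6, with and without this floor. The mean log2 signal of E80 was above that of E60 (2.23 ± 1.28 on the linear scale, SD, n = 3) by 5.22 (SE 2.12), and by 2.27 when array 6 was left out. The values without array 6 rest on dim signals throughout, as does the place of arrays 4 and 5 above E60.

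ENPP2 (autotaxin) is a secreted enzyme that makes the lipid messenger lysophosphatidic acid. Its signal was 74.9, 106 and 41.0 at E60 (74.0 ± 32.4, SD, n = 3), 65.1 on array 4, 129.5 on array 5 and 692 on array 6. Array 4 fell inside the range of E60, array 5 lay above it and array 6 was 5.34-fold above array 5. ENPP2 was the one gene of the 7 with a signal above the array median already at E60. Array 4 differed from the mean log2 signal of E60 by -0.08, while array 5 differed by 0.91 and array 6 by 3.33. The mean log2 difference between the days was 1.39 (SE 0.77) with array 6 and 0.42 without it.

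AQP1, the water channel of the apical epithelial membrane, went the same way on both of its probe sets, at different size. The first, for accession CF792401, read 20.4, 36.9 and 21.8 at E60, 22.9 and 33.3 on arrays 4 and 5, and 168 on array 6. Arrays 1 to 5 overlapped, and array 6 was 4.54-fold above the highest of them, or at least 2.59-fold with dim signals raised to the medians. The second, for NM_214454, read 11.3, 16.9 and 5.11 at E60, 9.13 on array 4, 16.5 on array 5 and 29.0 on array 6. All 6 of these signals were dim, and array 6 was 1.72-fold above the next, array 2. Without array 6 the mean log2 differences between the days were 0.12 and 0.31 on the first and second probe set, with 0.99 (SE 0.67) and 0.72 (SE 0.58) when it was kept.

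FOLR1, the folate receptor that carries folate across the epithelium, was highest on array 6 for both of its genes. For gene 397579 the signal was 1.44, 0.730 and 1.66 at E60, 0.803 and 1.86 on arrays 4 and 5, and 61.1 on array 6. All but the last of these signals were dim, and 61.1 was barely above the median of array 6 (59.2), so that no fold is given. For the other gene, 396784, the signal was 38.5, 29.6 and 24.2 at E60, 6.05 on array 4, 26.6 on array 5 and 128 on array 6. Arrays 4 and 5 and all E60 arrays (30.8 ± 7.19, SD, n = 3) were dim, so that the lower value of array 4 is not read as a difference. Array 6 was 3.33-fold above the highest of them, or at least 1.98-fold with dim signals raised to the medians. For gene 396784 the mean log2 difference between the days, which rests on those dim signals, was -0.14 (SE 0.92), or -1.25 without array 6. For 397579 the mean log2 difference was 1.90 (SE 1.45), and 0.02 without array 6.

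F5 (coagulation factor V), the cofactor that speeds thrombin formation, followed the day and not array 6. Its signal was 22.3, 21.5 and 23.6 at E60 (22.5 ± 1.01, SD, n = 3), and 118, 64.1 and 108 on arrays 4, 5 and 6. All 3 E80 arrays lay above all 3 E60 arrays, and array 4, not array 6, was the highest. The differences from the mean log2 signal of E60 were 2.39, 1.51 and 2.26 on arrays 4, 5 and 6. The mean log2 difference between the days was 2.05 (SE 0.26), and 1.95 without array 6. All E60 signals of F5 were dim and all E80 signals were above the medians of their arrays. On array 5 that signal was barely above the median (59.5). With dim signals raised to the medians, the differences from E60 were 0.90, 0.03 and 0.775 on arrays 4, 5 and 6.

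KCNE2 and PRLR gave no clear level on any array. KCNE2, a small subunit that tunes potassium channels of the apical membrane, read 12.7, 1.75 and 4.38 at E60 and 6.24, 4.16 and 11.96 on arrays 4, 5 and 6 with its first probe set. The highest of these was array 1, and the E60 signals enclosed those of E80. Its other probe set read 1.29 to 2.00 over the 6 arrays, with array 6 the lowest. PRLR, the prolactin receptor, which is abundant in the choroid plexus of other mammals, read 1.27, 2.35 and 1.70 at E60 and 2.52, 1.88 and 3.08 on arrays 4, 5 and 6. Array 6 was the highest for PRLR by 1.22-fold, less than the step between E60 arrays 1 and 2. At such signals a missing transcript and a probe set that does not read it cannot be told apart.

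**Figure D2:**
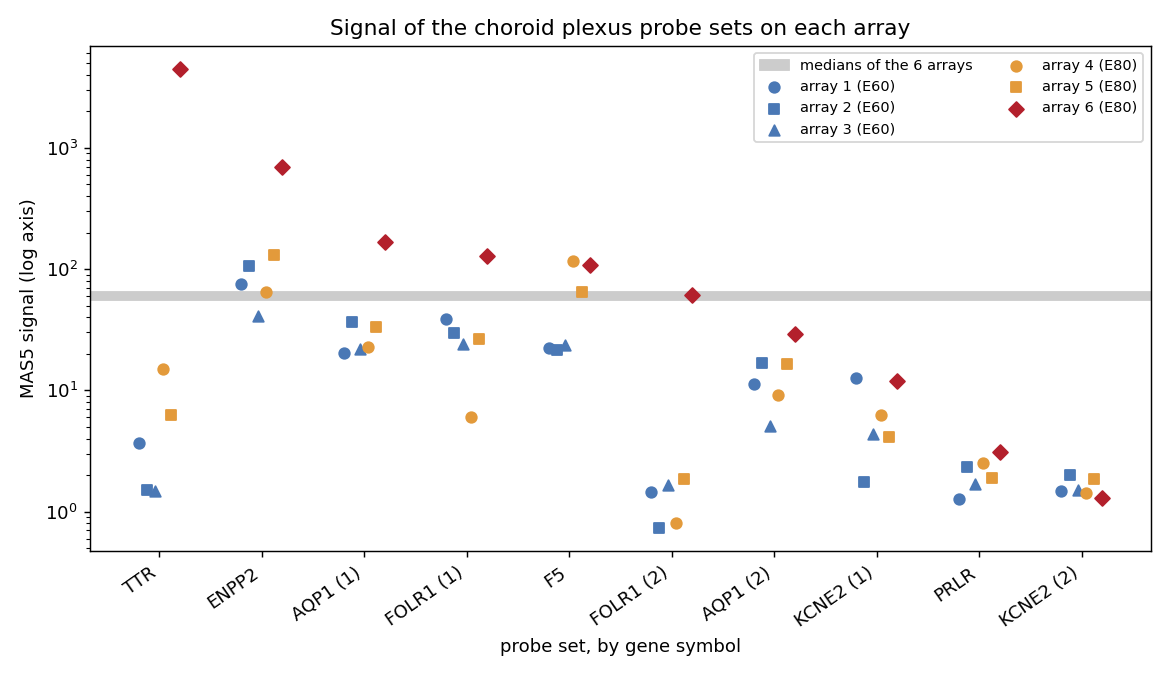
MAS5 signal (vertical axis, log scale) of the 10 probe sets on the 6 arrays, with E60 in blue, arrays 4 and 5 in orange and array 6 in red; the grey band spans the medians of the 6 arrays, 55.6 to 64.8, FOLR1 (1) is gene 396784 and FOLR1 (2) gene 397579. Array 6 is highest for TTR, ENPP2, both AQP1 and both FOLR1 probe sets and PRLR, while F5 is higher on all 3 E80 arrays than at E60.

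Read over all 10 probe sets, the E80 arrays were unlike each other. The median log2 difference from E60 rested at -0.10 for array 4 and 0.51 for array 5 but 2.17 for array 6, where all 23999 probe sets had -0.08, -0.00080 and -0.03. Array 6 was above all 3 E60 arrays for 8 of the 10 (26.3% of all probe sets), while array 5 was for 4 (28.5%) and array 4 for 3 (22.7%). It held the highest signal of the 6 arrays for 7 of the 10, compared with 15.8% of all probe sets. A margin of at least 2-fold over the next array was found for 5 of the 10, namely TTR, ENPP2, the first AQP1 and both FOLR1 probe sets, and for 3 (TTR, ENPP2 and AQP1) with dim signals raised to the medians. All E80 arrays were above all E60 arrays for 2 of the 10 (TTR and F5), compared with 9.25% of all probe sets. In limma, 1 of the 10, F5, passed as higher at E80, where 0.933% of all probe sets passed as higher and 1.95% in either direction. F5 no longer passed without array 1, 2 or 4, and passed without array 6. These counts rest on the signals with which the genes were chosen, and nothing is read from them.

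By its r with TTR alone F5 was not set apart, but its r with AQP1, ENPP2 and FOLR1 was lower than any r without F5. Pearson's r with TTR, over log2 signals of 6 arrays from 6 embryos, was 0.92 for FOLR1 (gene 397579), 0.90 for ENPP2, 0.89 for the first AQP1 probe set, 0.73 for F5 and 0.58 for FOLR1 (gene 396784). AQP1 and ENPP2 had an r of 0.97 with each other. F5 had 0.49 with AQP1, 0.53 with ENPP2, 0.48 with FOLR1 (gene 397579) and -0.09 with FOLR1 (gene 396784). Among the pairs without F5 the lowest r was 0.58. These values lean on array 6, which all pairs share. For TTR and FOLR1 (gene 397579) every signal but that of array 6 was dim.

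Further genes of the choroid plexus, taken from a list that leaves out the 7, differed little between the days, and 2 of them had a signal above the median on array 6 alone. Of 45 listed symbols 19 were measured by a probe set with 1 symbol, each read here by its brightest. Among those without such a probe set are OTX2, CLIC6 and KL. CALML4, a calmodulin-like protein of epithelia with brush borders, read 12.5, 18.9 and 1.92 at E60, 1.85 and 13.2 on arrays 4 and 5, and 96.8 on array 6. The anion exchanger SLC4A2, which brings chloride into epithelial cells in exchange for bicarbonate, read 6.32, 4.88 and 23.6 at E60, 4.88 on array 4, 14.3 on array 5 and 95.2 on array 6. In both genes arrays 4 and 5 stayed within the range of E60 or just below it, and array 6 was the highest. All signals on arrays 1 to 5 were dim, and with these raised to the medians the margin of array 6 was at least 1.49-fold for CALML4 and 1.47-fold for SLC4A2. Without that floor they are 2 of the 14 probe sets with a 4-fold margin, of which 4 belong to TTR, ENPP2, AQP1 and FOLR1.

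None of the other 17 listed genes had a 2-fold margin on array 6. The phospholipid transfer protein PLTP read 160 to 240 at E60, 149 and 215 on arrays 4 and 5 and 306 on array 6, and the metalloreductase STEAP1 read 28.5 to 34.5, 42.9, 27.3 and 57.1. For both, array 6 was above the 5 other arrays by less than 2-fold. The epithelial genes CDH1 (E-cadherin) and KRT8 (a keratin) were not highest on array 6, at 36.1 and 29.6 there against 20.3 to 81.3 and 9.71 to 72.8 on the other arrays. Over the 19 genes the median log2 difference from E60 came to -0.37 for array 4, 0.05 for array 5 and 0.36 for array 6, and array 6 was the highest array for 8 of them (15.8% of all probe sets). Array 6 was above all E60 arrays for 12 of the 19, and arrays 4 and 5 for 5 each, where the shares of all probe sets are those given above.

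**Figure D3:**
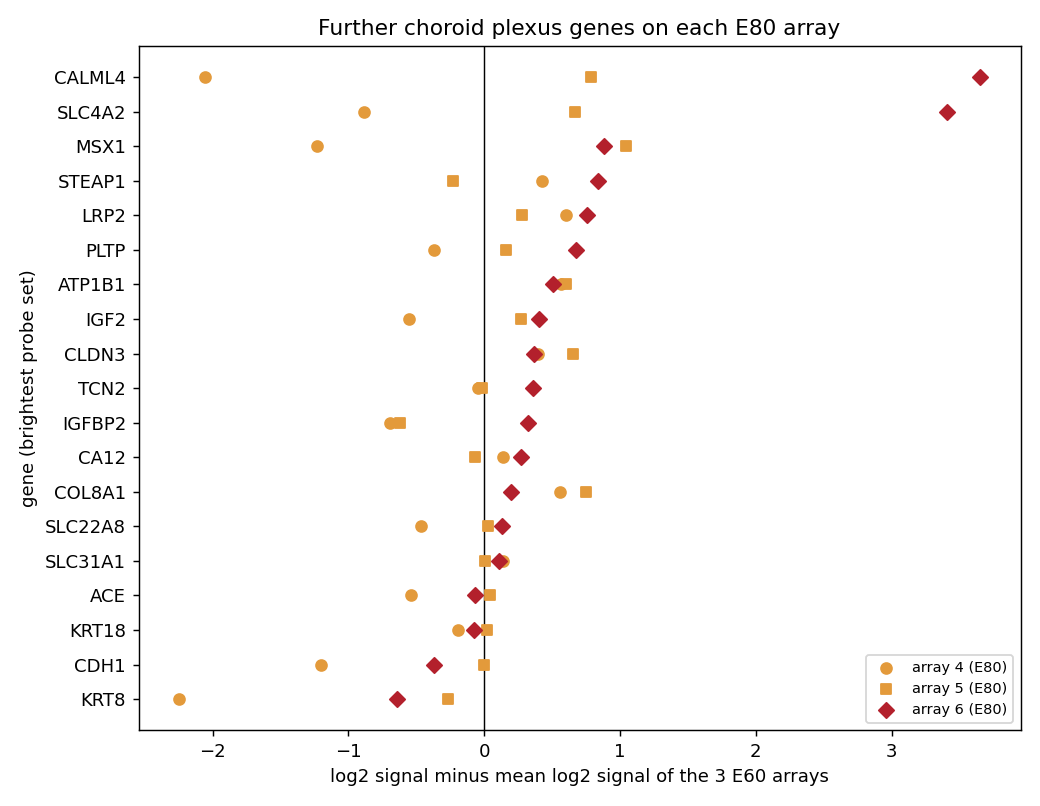
Log2 signal on each E80 array minus the mean log2 signal of the 3 E60 arrays (horizontal axis) for the 19 further choroid plexus genes (vertical axis, brightest probe set each), with array 4 and 5 in orange and array 6 in red. CALML4 and SLC4A2 lie at 3.65 and 3.40 on array 6, and the other genes lie between -0.64 and 0.89 there.

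Across the days, 1 of these 19 genes rose and 0 fell in limma (1 higher and 0 lower at an unadjusted p under 0.05, which 18% of all probe sets reached), with a median log2 difference of 0.11 against -0.05 over all probe sets. The gene that rose is ATP1B1, the beta subunit of the sodium pump, which neurons and glia also use. It read 1697, 1568 and 1835 at E60 and 2507, 2573 and 2416 on arrays 4, 5 and 6, a log2 difference of 0.56 (SE 0.09, adjusted p = 0.0248 from limma). All E80 arrays were above all E60 arrays, and array 6 was the lowest of E80. With this probe set ATP1B1 did not pass without any one of arrays 1, 2, 4, 5 and 6 (adjusted p = 0.0527 to 0.116 from limma). Its other probe set read 881, 811 and 944 at E60 and 1124, 1489 and 1018 on arrays 4, 5 and 6. That one did not pass (log2 difference 0.445, SE 0.14, adjusted p = 0.155 from limma). Over the whole array, E80 was higher for 224 probe sets and lower for 243, a split that became 311 against 108 when the medians of the arrays were made equal, a step that moved the median log2 difference of all probe sets from -0.05 to 0.06.

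Partners of the 7 proteins differed little between the days. Of 62 listed symbols for the cargo, receptors, enzymes and channels that work with them, 36 were measured, and 0 rose and 1 fell in limma (5 higher and 2 lower at an unadjusted p under 0.05). The shares of all probe sets were 1.95% and 18%, near those of the partners. Their median log2 difference between the days was -0.0048, and on array 6 against E60 it was 0.17. Array 6 was the highest array for 8 of the 36, against 15.8% of all probe sets. None of the 36 had a margin of 2-fold on array 6 with a signal above the median, a margin that 0.575% of such probe sets had, so that nothing is read from this count.

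RBP4, the retinol carrier that binds TTR, read 169, 268.5 and 351 at E60 and 618, 507 and 607 on arrays 4, 5 and 6. All E80 arrays were above E60 and close to each other, unlike TTR, with a log2 difference of 1.19 (SE 0.24, adjusted p = 0.0502 from limma). RBP4 passed without array 3 (adjusted p = 0.0345 from limma). Its other probe set was dim, at 4.27 to 15.3, with a log2 difference of -1.04 (adjusted p = 0.287 from limma). The thyroid hormone receptor THRA read 1477 to 1810 at E60 and 2167, 1779 and 2519 on arrays 4, 5 and 6 (log2 difference 0.40, adjusted p = 0.177 from limma).

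The gene that fell was F2R, the thrombin receptor on the cell surface, at 277, 274 and 231 at E60 and 145, 131 and 173 on arrays 4, 5 and 6. Its log2 difference was -0.81 (SE 0.14, adjusted p = 0.0348 from limma), in the opposite direction to F5. F2R did not pass without array 1, 2, 4 or 5 (adjusted p = 0.0635 to 0.150 from limma) or with equal array medians (adjusted p = 0.05002). The factor VIII gene F8, a cofactor related to F5, read 1.94 to 3.54 at E60, 3.49 and 3.62 on arrays 4 and 5 and 10.3 on array 6, all of them dim.

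Folate genes beside FOLR1 stayed level. FOLR2, the folate receptor of macrophages, read 129, 120 and 87.1 at E60 and 100.1, 139 and 156 on arrays 4, 5 and 6 (log2 difference 0.23, adjusted p = 0.631 from limma). The proton-coupled folate transporter SLC46A1 read 65.7 to 87.7 at E60 and 60.5 to 85.8 at E80. For lysophosphatidic acid, the product of ENPP2, the receptor LPAR6 read 115 to 128 at E60 and 75.6, 65.8 and 109 on arrays 4, 5 and 6 (log2 difference -0.57, adjusted p = 0.179 from limma), and the phosphatase PLPP1, which breaks it down, 323 to 330 and 402, 409 and 424 (0.33, adjusted p = 0.0911 from limma). The days did not overlap for LPAR6 or PLPP1, and neither passed. KCNQ1, the channel that KCNE2 joins, was dim on all arrays, at 24.4 to 38.9 with its brightest probe set. Among receptors related to PRLR, the growth hormone receptor GHR read 6.67, 3.74 and 3.09 at E60 and 17.9, 28.7 and 5.84 on arrays 4, 5 and 6 (log2 difference 1.76, adjusted p = 0.199 from limma), all dim, with array 6 inside the range of E60. For prolactin signalling, JAK2 and STAT5A overlapped between the days, at 51.7 to 76.8 and 36.1 to 47.9 over the 6 arrays.

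Several named probe sets shared the margin of array 6. With dim signals raised to the medians, TTR (at least 69.1-fold) was followed by ENPP2 (5.34-fold), C1QTNF5 (at least 4.66-fold), LOC100154873 (3.47-fold), EPHX1 (3.40-fold), FXYD7 (3.38-fold) and FAM216B (at least 3.21-fold) among probe sets with 1 symbol. EPHX1 is an epoxide hydrolase and FXYD7 a regulator of the sodium pump. C1QTNF5, a secreted protein of epithelia such as the retinal pigment epithelium, read 51.1 to 60.2 on arrays 1 to 5 and 302 on array 6. Without the floor the order is set in part by how dim the other arrays were. Ranked by the log2 margin of array 6 over the next array, among signals above the median, TTR (8.21) and FOLR1 (5.04) were followed by ODF3B (2.67), named for the outer dense fibres of sperm tails, ENPP2 (2.42), CALML4 (2.36) and C1QTNF5 (2.33). Of these, FOLR1 and ODF3B had no margin left with the floor. AQP1 (2.18), C13H21orf62 (2.03), SLC4A2 (2.01) and C17H20orf85 (1.98) came next. The list of 15 ended with the sugar transporter SLC2A12 (1.90), LOC100154873 (1.79), FAM216B (1.79), EPHX1 (1.77) and FXYD7 (1.76). The FOLR1 probe set for gene 396784 (1.74) stood just outside these 15. Among probe sets with 1 symbol, the largest margin on array 4 was that of the synaptic adhesion protein CLSTN3 (1.02) and on array 5 that of MCUB (1.28), a part of the mitochondrial calcium uniporter, and no gene of the 7 was among the first 5 of either array.

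The genes most like TTR over the 6 arrays, by Pearson's r of log2 signals among probe sets with a range of at least 1, were CFAP126 (r = 0.995), LOC100621778 (0.983), CLEC2D (0.983), S100B (0.977) and CLEC18C (0.976). They were followed by the calcitonin receptor CALCR (0.973), RNF128 (0.967), C1QC (0.966), HSP70.2 (0.966) and CDKN1A (0.964). CFAP126, a protein of motile cilia, read 25.9 to 26.9 at E60, 40.8 and 33.5 on arrays 4 and 5 and 114 on array 6. The order of the E80 arrays in CFAP126 is that of TTR, with array 4 above array 5. Both genes were dim on arrays 1 to 5, so that this order is not read as a difference. Each r with TTR rests on TTR signals that were dim on all arrays but array 6. For F5 the nearest profiles were MGLL (0.993), PPP1R1A (0.990), CDKN2D (0.988), DMTN (0.981) and OMG (0.979), all higher on each E80 array. MGLL, the lipase that breaks down the endocannabinoid 2-AG, read 117 to 127 at E60 and 241, 204 and 238 on arrays 4, 5 and 6. None of the other 5 genes was among these profiles.

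Marker lists of other cell types also moved on array 6, in different directions, and the meningeal list moved on array 4 as well. Of the microglial genes 6 of 9 were measured, and 5 of the 6 were highest on array 6. Their summed signal was 172 to 270 on arrays 1 to 5 and 746 on array 6. P2RY12, a purine receptor that defines microglia, read 16.1 to 32.3 at E60, 44.0 and 23.4 on arrays 4 and 5 and 133 on array 6, and AIF1 read 40.7 to 64.6, 51.3, 57.9 and 176. C1QA and C1QC, which start the complement cascade, were highest on array 6 as well (140 and 227), while ITGAM was highest on array 5. CX3CR1, CSF1R and C1QB were not measured.

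Ependyma, the ciliated lining of the ventricles next to the choroid plexus, was covered by 3 of 18 genes, all highest on array 6. TPPP3 read 98.1 to 109 at E60, 150 and 75.9 on arrays 4 and 5 and 337 on array 6, TEKT1 read 1.48 to 11.6, 1.92, 1.70 and 25.6, and MLF1 57.8 to 67.4, 62.1, 83.2 and 116. The master regulator of motile cilia FOXJ1 was not measured. The summed signal of the 3 genes was 161 to 214 on arrays 1 to 5 and 479 on array 6. Of 5 oligodendrocyte genes 4 were highest on array 6, with a summed signal of 770 to 1237 on arrays 1 to 5 and 1724 on array 6. Among them MBP, the myelin basic protein, read 42.6 to 64.7 at E60 and 162, 68.3 and 466 on arrays 4, 5 and 6. That is its brightest probe set, and the others read 84.2, 68.8 and 7.98 on array 6, highest there only for the first. SOX10, the gene not highest on array 6, was dim on all arrays and lowest there, at 9.07.

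Meningeal and fibroblast genes, which the connective core of the choroid plexus also expresses, were low on array 6 for 4 of the 5 measured. COL3A1, the exception, read 42.3 there and 28.9 to 60.0 at E60. The summed signal of all 5, of 12 listed, was 953 to 1414 at E60 and 488, 991 and 372 on arrays 4, 5 and 6. Array 4 was thus low as well. Decorin (DCN) read 272 to 580 at E60, 111 and 305 on arrays 4 and 5 and 73.0 on array 6. Endothelial and pericyte genes, all 10 measured, summed to 1918 to 1944 at E60 and 1606, 1839 and 1577 on arrays 4, 5 and 6. None of the 10 was highest on array 6. The beta globin HBB read 917 on array 6 and 975 to 1156 on the others. None of the 4 genes measured for the cortical hem, the tissue between cortex and choroid plexus, was highest on array 6, with BMP7 at 53.8 to 66.3 over all arrays. In limma 0 genes of the microglial, ependymal, oligodendrocyte, meningeal, endothelial, globin and hem lists passed. At an unadjusted p under 0.05, 2 of 6 microglial and 3 of 5 oligodendrocyte genes were higher at E80. Lower at E80 were 3 of 5 meningeal, 2 of 10 endothelial and 1 of 4 hem genes. Over all probe sets 1.95% passed and 18% reached an unadjusted p under 0.05. The lists are short, so that nothing is read from these counts. Of 9 listed genes of radial glia and astrocytes 6 were measured, and 1 rose and 0 fell in limma (2 higher and 1 lower unadjusted). The gene that rose was GFAP, with a log2 difference of 1.89 (SE 0.31, adjusted p = 0.0304 from limma). GFAP was higher on all E80 arrays than on any E60 array, and highest on array 6. That is its brightest probe set, and another passed as well (log2 difference 1.76, adjusted p = 0.0321 from limma). The rest were dim and did not pass (adjusted p = 0.516 and 0.887 from limma). The part of these cell types and of the ribosomal RNA difference in the signals of the 7 genes was not tested.

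**Figure D4:**
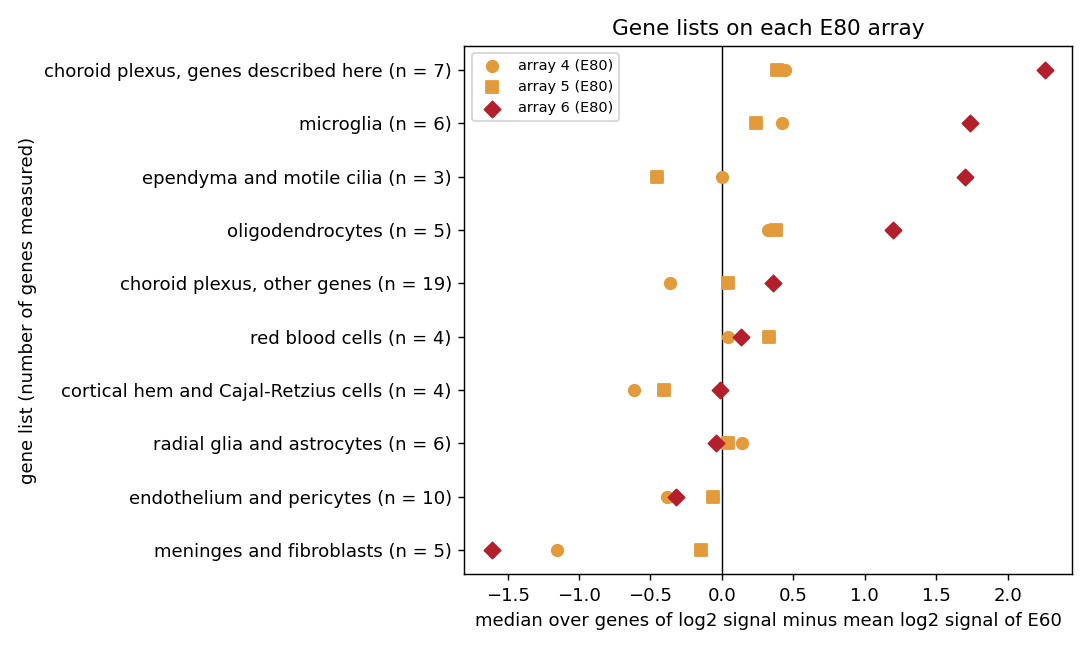
Median over genes of the log2 signal on each E80 array minus the mean log2 signal of E60 (horizontal axis), for gene lists with at least 3 genes measured (vertical axis, brightest probe set per gene), with arrays 4 and 5 in orange and array 6 in red. Lists of partner genes are not shown, and their medians on array 6 were -0.01 to 0.36. On array 6 the median is 2.26 for the 7 genes described here, 1.74 for microglia, 1.70 for ependyma and -1.61 for meninges and fibroblasts. For meninges and fibroblasts it is -1.16 on array 4.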

How the data were processed

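Total RNA of cortical tissue was hybridised to 1 array per embryo. The deposited values are intensity values, namely the authors' MAS5 signals on a linear scale, each array multiplied by 1 scale factor. The authors made detection calls on each array and selected genes at a fold threshold, and neither was used here. All probe sets of the array are in the table, and no MAS5 version is stated. Of 24123 probe sets, 124 controls were left out. Symbols came from the platform annotation (10069 probe sets with 1 symbol, 198 with several and 13732 with none), and 9961 of the 10069 had a gene identifier in the RefSeq table. No sequences or coordinates were used.

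Signals were taken to log2 with no pseudocount or further normalization, since MAS5 had scaled the arrays. E80 was compared with E60 by limma 3.58.1 in R 4.3.3 (lmFit, eBayes with an intensity trend, 6 arrays, no covariates), adjusted by Benjamini-Hochberg over 23999 probe sets at 0.05. The fit was tested on simulated data. The margin of an array is its log2 signal minus the highest of the 5 others. Lists were read by the brightest probe set per gene. Nothing says that the embryos of a day are more than litter mates, so p-values measure the spread between these samples. Their number limits the precision.

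The genes and lists were chosen with earlier results of these data known. Named genes are the 7 genes, up to 5 genes a list by limma p and up to 5 by the margin of array 6, the 15 largest margins of array 6 and 5 each of arrays 4 and 5, and the 10 nearest profiles to TTR and 5 to F5; not each is printed. Genes named outside this rule are those listed but not measured. Alternatives were quantile normalization, equal medians, a pseudocount of 32, the 66% of probe sets with the highest mean signal, no trend, array weights, a floor at the array median and leaving out each array.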

Additional observations from a re-analysis of the deposited data

How the results depend on the processing

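The count of probe sets past the limma test was 467 and became 763 with the brightest 66% of probe sets, 1169 with array weights, 0 without the intensity trend (3706 at an unadjusted p under 0.05), and 1 to 367 when each array was left out in turn (1 without array 1, 2 or 4, 200 without array 6 and 294 without array 3). Of the further choroid plexus genes 1 had passed, with 0 without the trend (1 at an unadjusted p under 0.05) and 0 to 1 without an array (1 only without array 3). Of the partner genes 1 had passed, with 0 after the medians were made equal (7 at an unadjusted p under 0.05), 2 with the brightest 66%, 2 with array weights, 0 without the trend (5 at an unadjusted p under 0.05) and 0 to 2 without an array. The second gene in those counts is RBP4. F5, ATP1B1 and F2R did not pass without the trend. The median log2 difference of array 6 from E60 over the 10 probe sets was 2.17, and became 1.36 with 32 added to each signal and 0.37 with signals raised to the array median, both of which shrink dim signals by construction. With that floor the differences on array 6 were 6.15 for TTR, 3.14 for ENPP2 and 1.41 for the first AQP1 probe set. They were 1.03 for FOLR1 (gene 396784) and 0.775 for F5, but -0.04 for FOLR1 (gene 397579). Over 7 alternatives and 10 probe sets, 66 of 70 differences on array 6 kept their sign, all 4 exceptions being under the floor. The 69 probe sets with a 2-fold margin on array 6 became 40 with 32 added and 32 among the brightest 66%, against at most 2 and 5 on any other array, and 33 with the floor, an alternative chosen after seeing the data, against at most 5. Other alternatives kept these counts within 1.5 times. Replicate numbers were given in accession order and pair no arrays.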
